A study of Mus musculus with 30 samples.

Results

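The comparison sets perisynaptic diaphragm of SBMA mice against that of control mice at 15 weeks of age. Its members were taken by genotype, region and age in the sample labels: 4 SBMA and 3 control libraries of the 30 in the series, each from a separate male mouse. All 7 animals carry the transgene BACfxAR121, a bacterial artificial chromosome that carries the disease allele with an expanded glutamine repeat (the SBMA libraries are tagged BACfxR121). Control animals are littermates tagged HSA-Cre;BACfxAR121, in which a recombinase driven by a skeletal muscle promoter removes the transgene in muscle fibres. The controls are therefore rescued in muscle and still hold the transgene elsewhere, motor neurons included, and no group without the transgene was compared here. The perisynaptic piece is the band of diaphragm that holds the neuromuscular junctions, and the remaining extrasynaptic piece of the same 7 diaphragms was sequenced separately. Sets of 4 SBMA and 4 control animals gave perisynaptic libraries at 26 weeks.

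Spinal and bulbar muscular atrophy is an X-linked disease of men in which a long glutamine tract in a single protein harms cells, and both lower motor neurons and skeletal muscle degenerate. The diaphragm, the main muscle of breathing, mixes slow and fast fibres, and the nuclei below each junction transcribe acetylcholine receptor subunits and other synaptic genes at a higher rate than the rest of the fibre. Loss of nerve input switches some of these genes, but not all, on along the whole fibre.

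At 15 weeks few genes separated the groups. A membrane glycoprotein gene, Igsf1, rose from 2.42 ± 0.297 to 11.1 ± 1.02 CPM (counts scaled to a library of 1000000; mean ± SD, n = 3 and 4). A long non-coding RNA in the cluster of fast and developmental myosin genes, 2310065F04Rik, fell from 129 ± 21.3 to 28.6 ± 13.03 CPM. Of 15735 genes tested, 20 were higher in SBMA (0.127%) and 13 were lower (0.0826%) at an adjusted p under 0.05 in the quasi-likelihood test of edgeR, adjusted by the method of Benjamini and Hochberg. These 33 genes are the ones called below, and "rose" and "fell" are used only of them unless another comparison is named. In each of the 33 the SBMA and control libraries did not overlap, as in 6.1% of all genes tested on the higher and 5.55% on the lower side. Fold changes are log2 of SBMA over control ± SE, relative to a median gene at -0.01. At an unadjusted p under 0.05 there were 458 higher (2.91%) and 660 lower (4.19%) genes.

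Total counts in the 7 libraries ranged from 16280873 to 29701993, the 10 most abundant genes took 16.8% to 21.0% of them and mitochondrial genes 8.30% to 13.2%. Each library had a median correlation of 0.983 to 0.987 with the others, and the first principal component (24.4% of variance) put control libraries at 15.7 to 22.2 and SBMA libraries at -29.5, -24.3, 4.64 and -9.51. Gm42418, a gene over ribosomal RNA sequence whose level reflects leftover ribosomal RNA, took 3.87%, 0.804%, 2.63% and 4.21% of counts in SBMA and 1.03%, 1.31% and 1.14% in control. Its part in the results was not tested. Chrne, the receptor subunit made under the junction of adult muscle, stood at 17.3 to 29.3 CPM in the 7 perisynaptic pieces. It stood at 0.152 to 4.32 in the extrasynaptic pieces, with each perisynaptic piece above each extrasynaptic one. The extrasynaptic piece of SBMA replicate 1 was the highest of its kind for Chrne (4.32 CPM), Ache (18.3) and Chrnd (4.66). The other extrasynaptic pieces reached at most 1.07, 9.50 and 2.06. The part of this piece in the comparisons of regions was not tested by itself.

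The number of calls was small and moved with single animals. Leaving out SBMA replicate 1, 2 or 4 or control replicate 1 gave 6 genes, SBMA replicate 3 gave 7, control replicate 3 gave 9 and control replicate 2 gave 20. Igsf1, 2310065F04Rik, Prr32 and B230312C02Rik were called without each of the 7 animals in turn, Gm35330 and Hectd2os without 6 of the 7, and the other 27 without at most 2. DESeq2 called 125 genes (48 higher, 77 lower) and limma-voom with sample weights 105 (35 higher, 70 lower), and each of them called all 33. With total counts in place of TMM factors the split was 21 higher and 6 lower, with the median gene at 0.07.

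The sequence before the RefSeq start of 4 of the called genes is printed here. 2310065F04Rik and Igsf1 are the genes with the smallest p in each direction, and Tceal5 and Tceal7 are neighbours on the X chromosome that rose together. Each line holds the 250 bases before the start of the gene in RefSeq on GRCm38.p6, read 5′ to 3′ on the strand of the gene. In GENCODE vM21, which gave the gene positions below, Tceal7 spans 136214779 to 136226100, so its window lies inside the gene as annotated there. For 2310065F04Rik (chr11:67120081-67120330, minus strand) capitals mark AGAACA, part of the site that steroid receptors bind, and TATAAA, the TATA box, which matched once on each strand with an overlap. For Igsf1 (chrX:49797746-49797995, minus strand) no searched motif matched. For Tceal5 (chrX:136203885-136204134, minus strand) and Tceal7 (chrX:136223791-136224040, plus strand) capitals mark the runs of at least 8 bases that the windows share.
2310065F04Rik: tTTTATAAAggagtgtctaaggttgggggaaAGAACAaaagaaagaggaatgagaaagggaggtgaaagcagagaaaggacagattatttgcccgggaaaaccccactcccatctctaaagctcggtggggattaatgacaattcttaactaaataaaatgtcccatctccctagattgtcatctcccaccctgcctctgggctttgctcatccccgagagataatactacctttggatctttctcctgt
Igsf1: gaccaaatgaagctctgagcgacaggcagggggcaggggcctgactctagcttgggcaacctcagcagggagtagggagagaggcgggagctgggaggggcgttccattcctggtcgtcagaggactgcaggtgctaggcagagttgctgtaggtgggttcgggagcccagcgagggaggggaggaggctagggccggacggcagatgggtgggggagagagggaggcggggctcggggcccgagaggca
Tceal5: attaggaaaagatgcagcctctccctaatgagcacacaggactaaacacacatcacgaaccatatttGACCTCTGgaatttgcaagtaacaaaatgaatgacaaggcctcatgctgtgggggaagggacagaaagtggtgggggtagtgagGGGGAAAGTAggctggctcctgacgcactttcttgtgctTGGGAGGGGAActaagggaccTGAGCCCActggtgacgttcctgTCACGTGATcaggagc
Tceal7: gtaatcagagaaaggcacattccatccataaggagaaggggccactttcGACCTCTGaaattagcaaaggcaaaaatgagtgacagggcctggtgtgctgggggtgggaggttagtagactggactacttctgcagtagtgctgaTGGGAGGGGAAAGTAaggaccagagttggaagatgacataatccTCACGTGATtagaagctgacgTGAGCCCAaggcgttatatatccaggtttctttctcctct

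The windows of Tceal5 and Tceal7 matched at 139 of 193 aligned bases (72.0%) and shared 5 runs as counted in Tceal5, the longest of 11 bases (TGGGAGGGGAA). The alignment allowed gaps and left the ends free, and other pairs of windows were not aligned. In Tceal7 the runs GGGGAAAGTA and TGGGAGGGGAA overlap in the same marked stretch. TGAGCCCA lies before TCACGTGAT in Tceal5 and after it in Tceal7. One of the shared runs, TCACGTGAT, holds CACGTG, an E-box that clock and MYC family proteins bind. A RefSeq window was at hand for 20 of the 33 called genes. Searched on both strands, CACGTG lay in windows of 3 of 11 genes that rose (Abracl, Tceal5 and Tceal7) and 0 of 9 that fell. Of 11420 genes tested, 9.61% held it. A gene with several starts counted once, by a match in any of its windows. CACGTG was searched after the sequences had been seen. AGAACA lay in 1 of 11, 3 of 9 and 13.1%, and CAGCTG, the E-box of the myogenic factors, in 0 of 11, 3 of 9 and 15.1%. TATAAA lay in 0 of 11, 1 of 9 and 8.47%, and the MEF2 site in 0 of 11, 1 of 9 and 2.30%. These are matches of letters in one window per start and not sites.

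**Figure D1:**
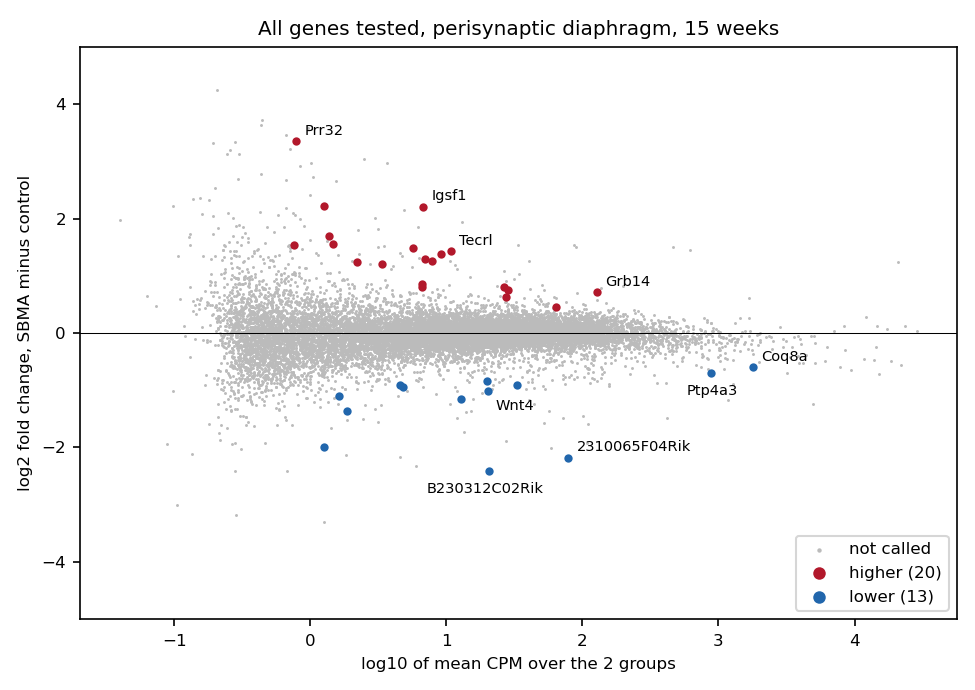
Log2 fold change of SBMA over control (vertical) against the log10 of mean CPM (horizontal) for the genes tested in perisynaptic diaphragm at 15 weeks; 1 gene lies outside the drawn range. The 20 called higher genes (red) lie mostly at low abundance and the 13 called lower genes (blue) extend to the abundant Coq8a and Ptp4a3; grey points were not called.

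Among the genes that rose, Igsf1 (ENSMUSG00000031111.16, chromosome X, 49782536 to 49797749, minus strand, GRCm38) encodes an immunoglobulin superfamily membrane protein known for its part in pituitary control of the thyroid. It stood at 11.9, 11.7, 11.2 and 9.64 CPM in the 4 SBMA libraries and at 2.25, 2.26 and 2.77 CPM in the 3 control libraries. Every SBMA library was above every control, and the log2 fold change was 2.21 ± 0.203 (adjusted p = 0.000202). Prr32, a proline-rich protein gene that is also on the X chromosome (45090904 to 45092791), stood at 1.86, 1.44, 1.72 and 0.691 CPM against 0.208, 0.0696 and 0.135. Control libraries held 5, 2 and 2 reads of it, so its fold change of 3.36 ± 0.446 (adjusted p = 0.00682) rests on few counts in one group.

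Tceal5 and Tceal7 belong to a family of small X-linked genes related to transcription elongation factor A, next to the Bex genes. Tceal5 (chromosome X, 136200948 to 136203876) stood at 11.1, 10.6, 10.7 and 11.4 CPM in SBMA and at 4.12, 4.80 and 4.86 in control. Tceal7 (136214779 to 136226100) stood at 10.03, 7.57, 10.9 and 11.1 against 3.95, 2.92 and 5.53. Neither gene's groups overlapped, and the fold changes were 1.26 ± 0.207 (adjusted p = 0.0241) and 1.29 ± 0.227 (adjusted p = 0.0273). Of 12 listed Tceal and Bex genes 8 were tested. Of these, 2 were called higher and 0 lower (0.127% and 0.0826% of all genes tested), and the median was 0.25, against -0.01 over all genes. Bex1, which overlaps Tceal7, was at 5.50 to 7.70 CPM against 3.58 to 4.59 without a call (0.69 ± 0.232, adjusted p = 0.428). Members of this family resemble each other, how shared reads were assigned is not given in the sources used here, and the overlap of Tceal7 and Bex1 is 223 antisense bases. Their levels are uncertain to that extent.

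Sctr, the secretin receptor, stood at 8.17, 7.84, 9.30 and 8.14 CPM against 1.87, 4.11 and 2.90 (1.49 ± 0.254, adjusted p = 0.0241). Grb14, an adaptor that binds and inhibits the insulin receptor, stood at 170.2, 176, 143 and 144 CPM against 86.7, 95.3 and 108 (0.71 ± 0.127, adjusted p = 0.0298). It was the most abundant gene that rose, and its lowest SBMA library was still above its highest control. Cxcl11, a chemokine that the annotation lists as a polymorphic pseudogene in mouse, stood at 1.53 to 2.66 CPM against 0.487 to 0.832 (1.70 ± 0.281). It overlaps Gm2673 by 1582 antisense bases, and without the strand setting of the counting their reads may not be told apart. Rtkn2, which encodes rhotekin 2, stood at 2.88 to 3.30 CPM in SBMA and 1.08 to 1.43 in control (1.24 ± 0.230).

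Stbd1, a glycogen-binding protein that carries glycogen to lysosomes, stood at 36.1, 34.8, 38.3 and 34.2 CPM against 22.1, 24.7 and 16.9 (0.75 ± 0.127, adjusted p = 0.0241). Tecrl, a membrane protein of the endoplasmic reticulum linked to inherited arrhythmia, stood at 17.7, 18.0, 14.7 and 12.7 against 4.70, 6.16 and 6.75 (1.43 ± 0.273, adjusted p = 0.0440). B4galt6, which makes lactosylceramide, stood at 31.2 to 37.3 against 18.2 to 21.5 CPM (0.81 ± 0.136). Each of these genes had groups that did not overlap. Among genes of the cytoskeleton, Palmd (palmdelphin) stood at 75.8, 73.4, 75.1 and 71.4 CPM against 53.2, 53.5 and 54.5, the smallest called change (0.46 ± 0.0796, adjusted p = 0.0253) and one with a narrow spread. Actr3b, a relative of the actin nucleator Arp3, rose by 0.63 ± 0.106 and Abracl by 0.80 ± 0.137.

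The other genes that rose were Crip3, Enkur and Fam169b, each under 1 CPM in control, and 3 non-coding genes. Gm35330 (chromosome 13, 5539279 to 5724510) stood at 3.87 to 5.95 CPM in SBMA and 1.98 to 2.09 in control (1.21 ± 0.168). Hectd2os, at 10.8, 12.5, 15.5 and 14.02 CPM against 4.41, 4.98 and 6.01 (1.38 ± 0.199, adjusted p = 0.0108), overlaps Hectd2 by 1834 antisense bases, and Gm26722 (0.85 ± 0.152) overlaps Rbbp4 by 796. The strand setting of the counting is not given, so reads of these pairs may not be told apart. In control, 15 of the 20 genes that rose were under 10 CPM, against 46.5% of genes tested, and 4 of the 20 were on the X chromosome, against 3.15%.

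**Figure D2:**
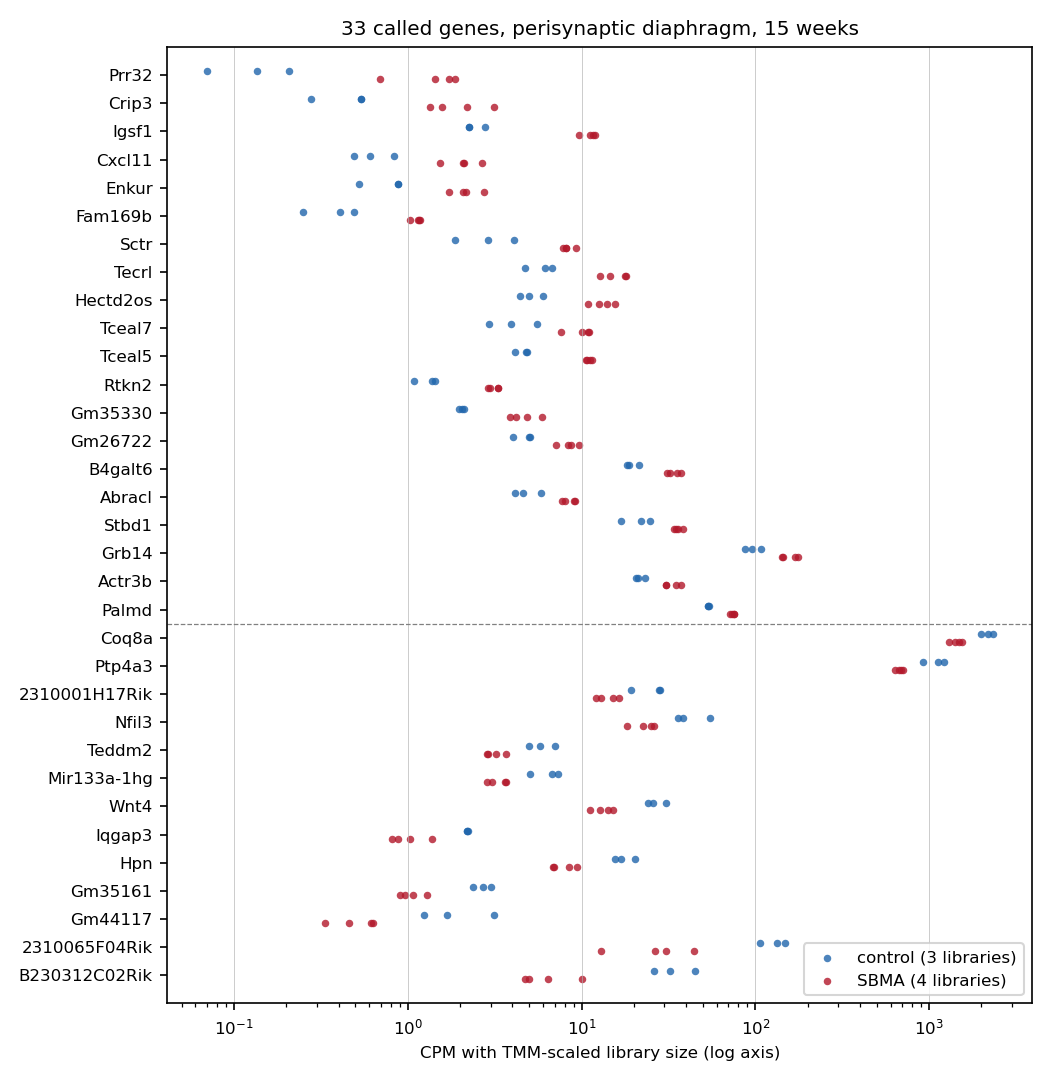
CPM (log axis) of the 33 called genes in each library, SBMA in red (4 libraries) and control in blue (3 libraries), ordered by fold change; the dashed line parts the 20 genes that rose from the 13 that fell. In each row the colours do not overlap, from Prr32 at 0.0696 to 1.86 CPM to Coq8a at 1306 to 2323 CPM.

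Among the genes that fell, 2310065F04Rik, known as linc-Myh, is a long intergenic RNA (ENSMUSG00000087410.7, chromosome 11, 67112461 to 67120080, minus strand) in the cluster of fast and developmental myosin heavy chain genes, 10170 bases from Myh3 and 50947 from Myh2. It is made in fast fibres. It stood at 30.4, 44.6, 12.9 and 26.6 CPM in SBMA and at 107, 149 and 133 in control. The highest SBMA library was below the lowest control, and the log2 fold change was -2.18 ± 0.273 (adjusted p = 0.00588). None of the myosin genes named here from the same cluster was called. Myh4, the fastest myosin, stood at 1939.6, 3771, 3418 and 2675 CPM against 8508, 8322 and 4109.8 (-1.24 ± 0.334, adjusted p = 0.238), and Myh1 was at -0.49 ± 0.192 (adjusted p = 0.550). Myh2 and Myh3 were at -0.30 ± 0.207 and -0.06 ± 0.380, the latter at 0.0165 with total counts, and the perinatal Myh8 was at 0.23 ± 0.294.

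B230312C02Rik, a long intergenic RNA on chromosome 2 (180370491 to 180385885), stood at 4.97, 10.05, 4.75 and 6.42 CPM against 32.3, 45.1 and 26.1 (-2.40 ± 0.322, adjusted p = 0.00682). This was the largest fall among the called genes. Mir133a-1hg, the host transcript of a microRNA made in striated muscle, stood at 3.68, 3.65, 3.06 and 2.84 against 6.78, 5.05 and 7.29 (-0.94 ± 0.153, adjusted p = 0.0241); these libraries do not measure the microRNA itself. Gm44117, 1108 bases from the transcription factor gene Klf15, stood at 0.334 to 0.631 against 1.25 to 3.13 CPM (-1.99 ± 0.383, adjusted p = 0.0484). Klf15 was at 80.9 to 88.9 against 96.1 to 158 CPM without a call (-0.57 ± 0.218). Of the 13 genes that fell, 6 were not protein-coding, against 12.5% of genes tested.

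The most abundant genes that fell were Coq8a and Ptp4a3. Coq8a, an atypical kinase needed for coenzyme Q synthesis, stood at 1545, 1489, 1306 and 1415 CPM against 2190.4, 1982 and 2323 (-0.59 ± 0.0975, adjusted p = 0.0241). Ptp4a3, a tyrosine phosphatase of the PRL family, stood at 708, 639, 668 and 692 against 1125, 925 and 1226 (-0.69 ± 0.121, adjusted p = 0.0273). Both had a gap between the groups wider than the spread within the SBMA group, but for Ptp4a3 the gap was narrower than the spread within control. Wnt4, a secreted ligand that takes part in junction formation, stood at 15.2, 14.2, 11.1 and 12.8 against 24.1, 30.7 and 25.7 (-1.01 ± 0.162, adjusted p = 0.0241). Nfil3, a repressor in the circadian clock, stood at 18.2, 25.0, 26.2 and 22.7 against 54.7, 38.4 and 35.8 (-0.90 ± 0.152, adjusted p = 0.0241). Hpn, a membrane serine protease, fell by 1.15 ± 0.207 and Iqgap3, a scaffold of the cytoskeleton, by 1.09 ± 0.207, on the log2 scale. The remaining genes that fell were Gm35161, an antisense transcript of the adenylyl cyclase gene Adcy2 (-1.36 ± 0.222), the long intergenic RNA 2310001H17Rik (-0.83 ± 0.151) and Teddm2 (-0.90 ± 0.159).

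Gene lists were described by counts and medians. Over all genes tested, 2.91% were higher and 4.19% lower at an unadjusted p under 0.05 in edgeR. The groups did not overlap in 6.1% on the higher and 5.55% on the lower side. EdgeR called 0.127% higher and 0.0826% lower. Over all genes DESeq2 called 48 higher and 77 lower of 15913, and limma-voom 35 higher and 70 lower of 15735. Across the 24 lists that are not cell type markers, the called members were Tceal5, Tceal7, Nfil3, Wnt4 and Coq8a. At an unadjusted p under 0.05 the lists held 15 higher and 90 lower entries, a gene in several lists counting in each, and DESeq2 and limma-voom each called 3 higher and 20 lower entries.

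Genes of fast muscle fibres stood lower in every tested member. All 17 had a fold change below 0, against 52.4% of all genes tested, and the median was -0.47, against -0.01. In 15 the SBMA libraries lay below every control library, as in 5.55% of all genes. EdgeR called 0 of the 17, and 14 were lower at an unadjusted p under 0.05, against 4.19% of all genes. DESeq2 and limma-voom called 6 and 5 lower, against 77 of 15913 and 70 of 15735 over all genes. Atp2a1, the calcium pump of the fast sarcoplasmic reticulum, stood at 12044, 11649.6, 10487 and 11347 CPM against 19929.5, 17476 and 18892 (-0.72 ± 0.144, adjusted p = 0.0581). Pvalb, the calcium buffer parvalbumin, stood at 604, 857, 814 and 638 CPM against 1902, 1624 and 1374 (-1.17 ± 0.270, adjusted p = 0.130). The groups of both genes were apart. Casq1, which stores calcium in the sarcoplasmic reticulum, was at -0.42 ± 0.0899 (adjusted p = 0.0868) and the Z disc protein gene Myoz1 by -0.55 ± 0.121 (adjusted p = 0.0949). Summed over the list, SBMA libraries held 76314 to 90476 CPM and control libraries 114452 to 126240. In bulk tissue fewer fast fibres and less RNA of these genes per fibre cannot be told apart. The list's median lay between -0.52 and -0.39 under the 16 other settings, and all 17 members stayed below 0.

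Slow fibre genes did not stand apart: 0 of 14 were called, 1 had an unadjusted p under 0.05, the median was -0.11, and neither DESeq2 nor limma-voom called any. Their main myosin Myh7 stood at 1797 to 2232 CPM in SBMA and 2067 to 2196 in control (-0.13 ± 0.201). In calcium handling and excitation-contraction coupling, 0 of 38 genes were called by edgeR and the median was -0.03. DESeq2 and limma-voom called 4 and 3 lower, against 77 of 15913 and 70 of 15735 over all genes. Below control without overlap were 10 (5.55% of all genes tested), and 7 were lower at an unadjusted p under 0.05 (4.19% of all genes). Beside Atp2a1, Casq1 and Pvalb these included Cacng1, which encodes the gamma subunit of the muscle calcium channel, at 24.3, 27.4, 31.3 and 19.98 against 65.2, 39.6 and 47.3 CPM (-0.98 ± 0.207, adjusted p = 0.0824). Ryr1, the release channel, was at -0.40 ± 0.270 and its voltage sensor Cacna1s by -0.47 ± 0.184. Of the sarcomere, Z disc and M band genes 0 of 30 were called and the median was -0.14, with 2 at an unadjusted p under 0.05 and none called by DESeq2 or limma-voom. Acta1, skeletal actin, which is in none of the lists, stood at 15970.1 to 19884 CPM against 24394 to 28819 (-0.56 ± 0.123, adjusted p = 0.0972).

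**Figure D3:**
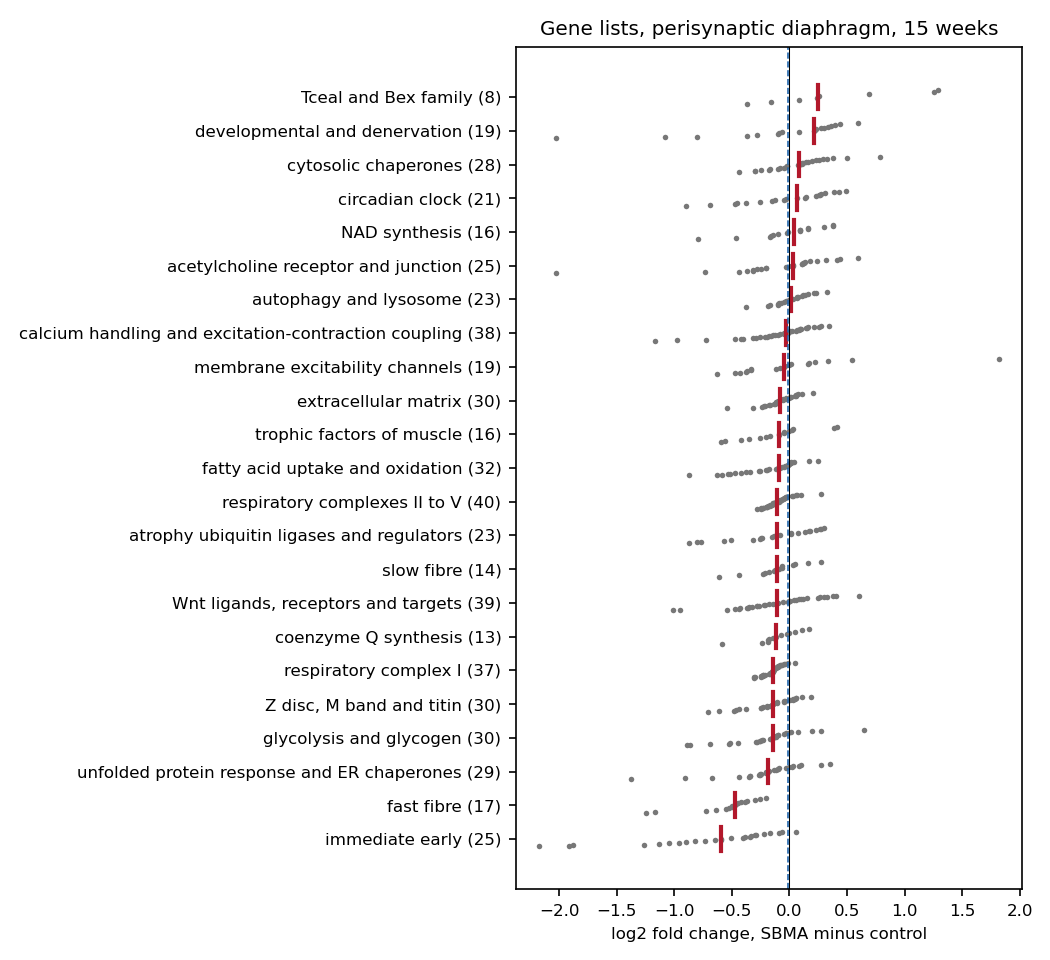
Log2 fold change of each tested member (points) in 23 gene lists, with the number tested in brackets, the list median (red bar), the median of all genes tested (dashed line) and 0 (solid line). The fast fibre and immediate early lists have the lowest medians, -0.47 and -0.59, and the Tceal and Bex family the highest, 0.25.

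Junction genes went both ways near the synapse. Of 25 acetylcholine receptor and junction genes 0 were called by edgeR and 0 by DESeq2, limma-voom called 1 lower, and the median was 0.03. At an unadjusted p under 0.05, 2 were higher and 4 lower (2.91% and 4.19% of all genes tested). Without overlap, 4 were above and 3 below control (6.1% and 5.55% of all genes). Chrna1, the alpha subunit of the muscle receptor, stood at 68.5, 60.7, 94.7 and 57.2 CPM against 54.3, 48.4 and 52.9. All SBMA libraries were above control, without a call (0.44 ± 0.165, adjusted p = 0.526). Chrne stood at 17.3 to 23.1 against 21.9 to 29.3 CPM (-0.37 ± 0.204), and Musk, the receptor kinase that organises the junction, at 54.3 to 64.2 against 31.9 to 43.9 (0.60 ± 0.338, adjusted p = 0.795). Colq, the collagen tail that anchors acetylcholinesterase, stood at 44.3 to 53.4 against 35.01 to 39.4 (0.41 ± 0.135, adjusted p = 0.421). Of 19 developmental and denervation genes 0 were called by edgeR, DESeq2 and limma-voom called 1 lower each and the median was 0.21. At an unadjusted p under 0.05, 1 of them was higher and 3 were lower (2.91% and 4.19% of all genes tested). The embryonic subunit Chrng was scarce, at 0 to 0.360 against 0.374 to 0.607 CPM.

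Outside the synaptic band the same 7 animals gave a larger fold change for Chrna1. Extrasynaptic pieces of SBMA animals held 36.1, 27.9, 41.9 and 25.8 CPM and those of control animals 10.2, 11.8 and 14.2 (1.45 ± 0.190). A fit of both pieces with a term for each animal tested whether the SBMA-control difference depended on the region. Of 15473 genes 2 were called (0.0129%), 1 in each direction (0.00646%). On the log2 scale Chrna1 had a smaller difference in the perisynaptic piece, by -1.02 ± 0.120 (adjusted p = 0.0250). Its mean level was 70.3 CPM in SBMA and 51.9 in control perisynaptic pieces, and 32.9 and 12.1 in extrasynaptic ones. The test compares ratios and not added amounts of RNA. Gm37194, an unconfirmed transcript on chromosome 14, stood in perisynaptic pieces at 28.4 to 47.1 CPM in SBMA and 14.6 to 21.0 in control, and in extrasynaptic pieces at 11.6 to 33.5 and 51.2 to 70.0 (2.80 ± 0.316, adjusted p = 0.0250). Gm42418, the gene over ribosomal RNA, also differed between the pieces: its perisynaptic level over its extrasynaptic level was 0.30, 0.195 and 0.187 in control and 1.26, 0.296, 2.77 and 5.33 in SBMA. The same ratio for Gm37194 was 0.41, 0.226 and 0.209 in control and 1.19, 1.49, 2.45 and 3.08 in SBMA, so the ratios parted most in SBMA replicate 2. The part of leftover ribosomal RNA in this call was not tested. Leaving out single animals kept the call of Chrna1 in 2 of 7 fits (without SBMA replicate 1 or 2; values from -1.13 to -0.88) and that of Gm37194 in 4 of 7 (lost without control replicate 2 or 3 or SBMA replicate 3). Without the animal term neither was called, and with total counts Gm37194 was not (adjusted p = 0.0520).

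**Figure D4:**
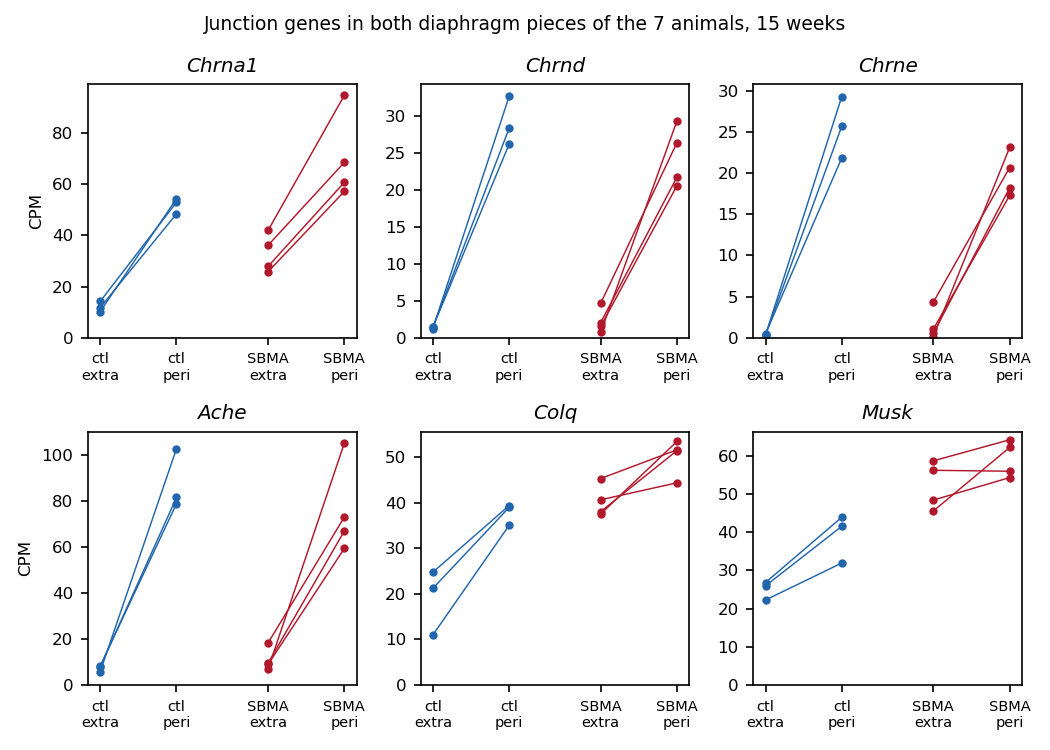
CPM of 6 junction genes in the extrasynaptic (extra) and perisynaptic (peri) piece of each 15-week animal, with lines joining the pieces of one animal; control (ctl) in blue, SBMA in red. Chrna1 lies at 10.2 to 14.2 CPM in control and 25.8 to 41.9 in SBMA extrasynaptic pieces, while the perisynaptic ranges, 48.4 to 54.3 and 57.2 to 94.7, lie next to each other.

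Immediate early genes, which answer activity and stress within minutes, were lower in nearly all tested members. Of 25 tested, 24 had a fold change below 0 and the median was -0.59. In 6 the SBMA libraries lay below every control, as in 5.55% of all genes tested. At an unadjusted p under 0.05, 13 were lower, against 4.19% of all genes. EdgeR called 0, and DESeq2 and limma-voom called 1 each, Nr4a1. This orphan nuclear receptor stood at 51.8, 36.3, 31.2 and 62.0 CPM against 149, 273 and 89.7 (-1.92 ± 0.389, adjusted p = 0.0635). Control replicate 2 was the highest for it and for Nr4a2, at 16.7 CPM against 4.03 and 1.75 in the other control libraries. Fos stood at 5.32 to 18.5 against 17.2 to 29.6 CPM (-1.05 ± 0.453) and Egr1 at 12.3 to 14.4 against 13.6 to 18.9 (-0.29 ± 0.356). In the clock list 1 of 21 genes fell, Nfil3, and 0 rose (0.0826% and 0.127% of all genes tested), and the median was 0.07. Per1 stood at 44.0 to 113 against 121 to 154 CPM (-0.69 ± 0.277). The hour of tissue collection is not given in the sources used here.

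Genes of protein quality control and atrophy were without calls in edgeR. Of 29 genes of the unfolded protein response, 10 were below control without overlap (5.55% of all genes tested). At an unadjusted p under 0.05, 5 were lower (4.19% of all genes), and none was called by DESeq2 or limma-voom. The median was -0.18. For 28 cytosolic chaperones it was 0.09, with 2 higher and 1 lower at an unadjusted p under 0.05. DESeq2 called 0 of them and limma-voom 1, Hsph1, which helps HSP70 release its clients. Hsph1 stood at 157 to 189.8 CPM against 92.3 to 111 (0.79 ± 0.282, adjusted p = 0.501 in edgeR). Among 23 atrophy genes the median was -0.11, 5 lower ones had an unadjusted p under 0.05 and DESeq2 and limma-voom called 1 lower each. The ubiquitin ligases of wasting muscle, Trim63 at 264 to 309 against 387 to 714 CPM (-0.87 ± 0.282) and Fbxo32 at 372 to 387 against 480.5 to 636 (-0.51 ± 0.199), were both below control without a call.

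In metabolism, Coq8a was the called member: it was 1 of 13 coenzyme Q genes, whose median was -0.12 (0.0826% of all genes tested were called lower). Of 30 glycolysis and glycogen genes 25 were below 0 and the median was -0.15. EdgeR called 0, 8 had an unadjusted p under 0.05, and DESeq2 and limma-voom called 2 lower each. Hk2, the muscle hexokinase, stood at 992, 869, 907 and 829 CPM against 2226, 989 and 1779, which overlap (-0.89 ± 0.205, adjusted p = 0.128). Aldoa, the muscle aldolase, stood at 3052 to 3663 against 4574 to 5189 (-0.52 ± 0.146, adjusted p = 0.273). For respiratory complex I 36 of 37 genes were below 0 by small amounts, with a median of -0.14, 0 of them at an unadjusted p under 0.05 and 0 called by any of the 3 tools. For complexes II to V 34 of 40 were below 0 and the median was -0.11, and for fatty acid uptake and oxidation 25 of 32 and -0.09. Neither had a member called by any of the 3 tools, with 0 and 8 at an unadjusted p under 0.05. Lpl, the lipoprotein lipase, stood at 2666 to 3549.7 against 4193 to 5229.5 CPM (-0.52 ± 0.147, adjusted p = 0.278).

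Among 19 channel and pump genes of membrane excitability 0 were called by edgeR, 1 higher and 4 lower had an unadjusted p under 0.05, DESeq2 called 1 higher and 1 lower, limma-voom called 1 lower and the median was -0.05. Kcnj3, a potassium channel opened by G proteins, stood at 7.60, 4.91, 2.22 and 4.92 CPM against 0.998, 1.32 and 1.96, and no library of one group reached the other (1.82 ± 0.473, adjusted p = 0.215). For 23 genes of autophagy and lysosome the median was 0.01, with 1 higher and 1 lower at an unadjusted p under 0.05. For 16 of NAD synthesis it was 0.04, with 2 lower. In both lists 0 were called by any of the 3 tools.

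Among Wnt genes Wnt4 was the called member of 39 tested (0.0826% of all genes tested were called lower), and the median was -0.11. Axin2, a target of canonical Wnt signals, stood at 28.4 to 35.8 against 19.1 to 28.2 CPM without a call (0.38 ± 0.142, adjusted p = 0.519). For trophic factors of muscle the median of 16 was -0.09 with 1 at an unadjusted p under 0.05, and for extracellular matrix the median of 30 was -0.08 with 0; neither list had a call in any of the 3 tools. Igf2 stood at 2.27 to 2.87 against 3.69 to 4.18 CPM (-0.59 ± 0.150, adjusted p = 0.192).

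Markers of 10 other cell types gave 0 calls among their tested members in edgeR and limma-voom, 5 higher and 3 lower at an unadjusted p under 0.05, and 1 higher and 1 lower in DESeq2. The medians were -0.28 for Schwann cells, -0.21 for macrophages, -0.14 for endothelium, -0.11 for fibroadipogenic progenitors, -0.30 for mesothelium, -0.03 for smooth muscle and pericytes, 0.01 for satellite cells and -0.12 over the 4 tested of 13 axon and motor neuron genes. Adipocyte genes had a median of 1.70, but their summed level was 747 to 1427 CPM in SBMA and 1311 to 1792 in control. SBMA replicate 4 was high in Plin1, the coat protein of fat droplets (22.3 CPM, against 0.287 to 3.33 in the other SBMA libraries), and without SBMA replicates 2 and 4 the median was -1.68. Erythrocyte genes summed to 1015 CPM in SBMA replicate 2 and to 175 to 310.3 in the other SBMA libraries, against 208 to 281 in control. Without these 2 SBMA libraries, a choice made after the values were seen, 5 genes were called: Igsf1, 2310065F04Rik, Prr32, B230312C02Rik and Car3, a carbonic anhydrase of slow muscle and fat (-2.17).

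The same 33 genes were followed in the other pieces and at the later age. In extrasynaptic muscle of the same animals 15 of the 20 genes that rose were called higher (0.554% of 15526 genes tested) and 11 of the 13 that fell were called lower (0.67%), where 1.22% of genes were called in either direction. These libraries share their animals with the perisynaptic ones, so they are no independent replicate. The difference between the regions was called for 0 of the 33, with 3 at an unadjusted p under 0.05 and 0 called by DESeq2. Hpn was lower by 1.15 ± 0.207 near the junctions, while its extrasynaptic change was -0.29 ± 0.245.

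At 26 weeks, in other animals but the same fit, 19 of the 20 genes were called higher (8.04% of 15735) and all 13 were called lower (5.97%). The exception was Actr3b, at 0.16 ± 0.0966. Both ages share the fit's estimate of the spread for each gene, so the calls at 26 weeks are not fully independent of those at 15. In 17 of 20 and 11 of 13 the change was larger than at 15 weeks. The test of the difference between ages called 59 genes in all (0.375%; 0.241% higher and 0.133% lower), 7 of them among the 33 with 5 higher and 2 lower, and DESeq2 called 12 of the 33. 2310065F04Rik changed by -5.26 ± 0.307 at 26 weeks, where SBMA libraries held 2.60 to 3.73 CPM and control libraries 105 to 133, a difference between ages of -3.08 (adjusted p = 0.00484). Igsf1 changed by 3.73 ± 0.184, with 25.0 to 40.03 against 1.65 to 3.13 CPM, a difference of 1.52 (adjusted p = 0.0174). Mir133a-1hg fell by 2.25 ± 0.154 on the log2 scale at 26 weeks, a difference of -1.31 (adjusted p = 0.0164).

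The other genes with a called difference between ages were Hectd2os (1.53), Abracl (1.09), Stbd1 (0.90) and Palmd (0.54). Leaving out each 15-week animal kept this call in 7 of 7 fits for 2310065F04Rik and Mir133a-1hg. It was lost without control replicate 2 for Abracl, Hectd2os, Igsf1 and Stbd1, also without control replicate 3 for Hectd2os and Igsf1 and without control replicate 1 for Igsf1 and Stbd1, for Stbd1 without SBMA replicate 1, 2 or 4, and Palmd was called in 0 of the 7 fits. B230312C02Rik had nearly the same change at both ages, -2.40 ± 0.322 and -2.38 ± 0.321, from control levels of 26.1 to 45.1 CPM at 15 weeks and 8.57 to 24.1 at 26. Coq8a changed by -1.18 ± 0.0920 at 26 weeks, with 941 to 951 CPM in SBMA and 1986 to 2236 in control, and its difference between ages was not called (-0.59, adjusted p = 0.0776).

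**Figure D5:**
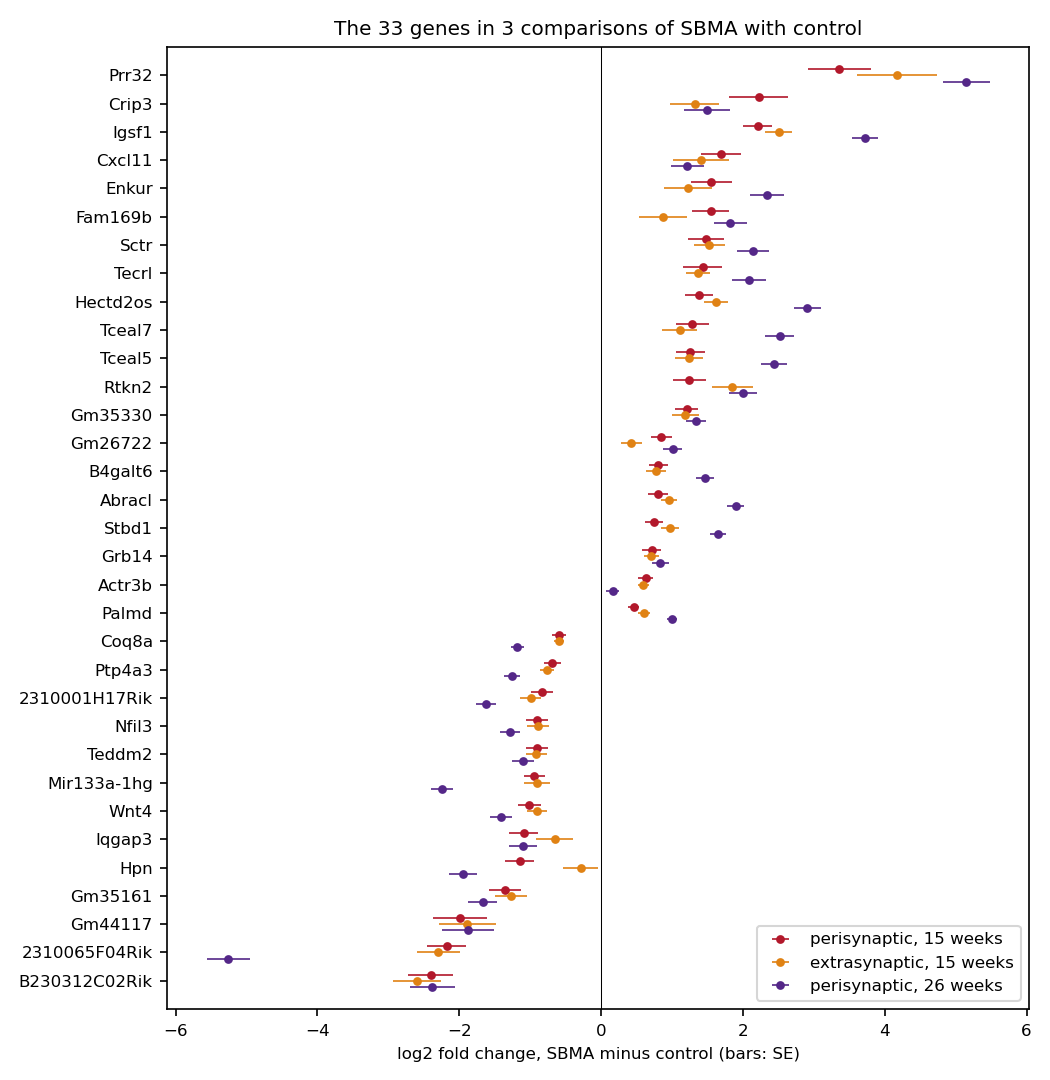
Log2 fold change of SBMA over control (points, bars SE) for the 33 called genes in perisynaptic muscle at 15 weeks (red), extrasynaptic muscle at 15 weeks (orange) and perisynaptic muscle at 26 weeks (purple). The red and orange points lie near each other for most genes, while 2310065F04Rik and Igsf1 are at -5.26 and 3.73 at 26 weeks.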

How the data were processed

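Polyadenylated RNA was sequenced from perisynaptic diaphragm of 4 SBMA and 3 control mice at 15 weeks. Per the labels' protocols, extraction used the Qiagen miRNeasy kit with a DNase step on the column, and KAPA's stranded mRNA kit gave the libraries. The authors deposited whole-number read counts per gene, counted with featureCounts on mm10 per the submitters' processing notes. The sources used here do not give the aligner, annotation or strand setting.

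Identifiers were joined to GENCODE vM21 (33064 of 33076 matched). The perisynaptic fit held 15 libraries with a mean per genotype and age (11 residual degrees of freedom), so all 4 groups share 1 estimate of the spread. Genes passed filterByExpr (minimum count 10, minimum total 15), were scaled by TMM and tested 2-sided with edgeR 4.0.16 in R 4.3.3 at an adjusted p under 0.05. A fit of the 14 libraries of 15-week animals with a term for each animal tested region dependence. Alternatives were DESeq2 1.42.0, limma-voom (limma 3.58.1), other scaling, no filter, blocks and left-out animals. Scripts were tested on simulated data.

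Named genes are those called, members of each list with the smallest p and a set list, of which the text gives a selection. Members, lists and rules were chosen with earlier results of these data known. P-values and errors cover the spread between animals, and reads carry no molecular identifiers. Sequences are RefSeq windows on GRCm38.p6. Some members of the lists are not reported here.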

Additional observations from a re-analysis of the deposited data

Results flagged for a closer look

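In SBMA libraries 5 of 111 genes checked had a library far from the other 3 of its group of 4, beyond the critical value of Dixon's test at the 95% level; chance gives about 1 in 20. Plin1 stood at 22.3 CPM and Adrb3, the adrenergic receptor of fat, at 6.45 CPM in SBMA replicate 4. Hbb-bs, a globin gene of red cells, stood at 587 CPM in SBMA replicate 2. Myh7, the slow myosin, stood at 2232 CPM in SBMA replicate 3, against 1797 to 1862 in the others. Myf5, a factor of satellite cells, stood at 2.96 CPM in SBMA replicate 1, against 2.34 to 2.43.

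The SBMA-control difference on the log2 scale depended on region, by the test of that difference, for Chrna1 (-1.02, perisynaptic minus extrasynaptic) and Gm37194 (2.80). It depended on age, as 26 minus 15 weeks on the log2 scale, for the called genes Igsf1 (1.52), 2310065F04Rik (-3.08), Hectd2os (1.53), Mir133a-1hg (-1.31), Stbd1 (0.90), Abracl (1.09) and Palmd (0.54). It did so too for genes without a call at 15 weeks: Myh4 (-2.78), the perinatal myosin Myh8 (2.16), the receptor subunit Chrnb1 (1.22), Nmrk2, a kinase of NAD synthesis (-3.27), and Bex1 (1.58).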

How the results depend on the processing

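In the fits that replaced a setting or left out animals, each of the 33 called genes kept its direction. The number called in perisynaptic muscle at 15 weeks was 33 with RLE factors, 27 with total counts (24 of the 33 among them), 49 in a fit of the 7 libraries (21 of the 33), 44 with a block for runs of animal numbers (26 of the 33), 68 without the filter, 125 with DESeq2 and 105 with limma-voom, and 5 without SBMA replicates 2 and 4. Leaving out single animals gave 6 to 20. At 15 weeks the runs of animal numbers held SBMA and control animals in unequal shares, so run and genotype cannot be fully told apart. For the dependence on age the main number of 59 became 148 with total counts and 178 with DESeq2, and 27 to 66 without single animals. For the dependence on region the main number of 2 became 1 with total counts, 180 without the filter, 6 with DESeq2, 0 without the animal term and 0 to 9 without single animals. The cause of these moves was not tested, except that left-out animals mean fewer samples.

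Replicate numbers did not pair the animals: the same-number SBMA and control libraries correlated at -0.0009, 0.018 and -0.109 after group means were removed. A replicate block gave 10 calls in perisynaptic muscle at 15 weeks, 8 of them among the 33, and 18 for the dependence on age.

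Genes without a call changed sign in these settings. Myh3 was at 0.0165 with total counts. Odc1 ranged from -0.35 to 0.0592 and Hbb-bs from -0.00685 to 1.09 when single animals were left out. Without SBMA replicates 2 and 4 Hbb-bs was at -0.24, Plin1 at -1.47, Adrb3 at -1.67 and Ache at 0.0369.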
